A study of Mus musculus with 3 samples.

Results

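The genes described here are 10 members of the fibroblast growth factor (FGF) family in the embryonic mouse kidney: the ligands *Fgf1*, *Fgf7*, *Fgf8*, *Fgf9*, *Fgf10* and *Fgf20*, the receptor tyrosine kinases *Fgfr1*, *Fgfr2* and *Fgfr3*, and *Fgfrl1*, a receptor-like protein that lacks the kinase domain. They were chosen by symbol and are 10 of the 32285 genes counted. Their counts of unique molecular identifiers (UMIs, each marking 1 captured transcript) were read in every kidney cell class of 3 single-cell libraries.

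Whole kidneys were dissociated at embryonic day E15.5 and sequenced with droplet capture of transcript 3′ ends, with 1 library for each of 3 groups. Enl-WT embryos were *Enl* +/+ *Wt1* GFPCre/+, and Enl-T1 embryos were *Enl* flox-T1/+ *Wt1* GFPCre/+, which carry a small in-frame insertion in the reader domain of ENL (encoded by *Mllt1*) after Cre recombination. Enl-T1 TDI-11055 embryos had the Enl-T1 genotype and came from mothers given the ENL reader inhibitor TDI-11055 orally, 100 mg/kg each day, from E10.5 to E14.5. The labels call the Enl-WT and Enl-T1 libraries untreated. All 3 groups carry the *Wt1* GFPCre allele, which removes 1 working copy of *Wt1* and drives Cre in cells with a history of *Wt1* expression, among them nephron and stromal progenitors, which are the lineages that the study names for this Cre. Embryos of a group were pooled, with no map from cells to embryos. With 1 library per group, no test between groups could be made, and every 95% interval covers counting error only.

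FGF ligands are secreted proteins that bind receptor kinases together with heparan sulphate and switch on the RAS-MAPK pathway, whose output includes the transcription factors *Etv4* and *Etv5* and the inhibitors of the Sprouty, Spred and Dusp families. In the kidney, *Fgf9* and *Fgf20* maintain nephron progenitors, *Fgf8* is needed for the survival of early nephron structures, and *Fgf7* and *Fgf10* from the mesenchyme act on the ureteric bud through *Fgfr2*. Receptor splice forms set which ligands bind, and counts of 3′ ends cannot tell the epithelial and mesenchymal forms of a receptor apart.

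Barcodes were kept if they had 1000 to 6000 genes and no more than 10% mitochondrial UMIs, which left 5233 cells of Enl-WT, 4144 of Enl-T1 and 2754 of Enl-T1 TDI-11055. Values for the 3 libraries are given in this order unless a sentence names another. The median depth was 5090, 9391 and 16931.5 UMIs per cell, so levels are given as CPM, the UMIs of a gene divided by all UMIs of the same summed cells and scaled to a fixed total. By their *Xist* and Y-linked UMIs, 26.5%, 73.3% and 35.1% of the cells were female. Of the 12111 different barcodes kept, 20 occurred in more than 1 library. *Mllt1* was at 25.1, 17.1 and 18.8 CPM and *Wt1* in the nephron lineage at 222, 108 and 75.5 CPM, but counts of 3′ ends do not check either allele. Cells were grouped into lineages and classes by clustering without the FGF genes, and a class is called X-like after its markers. The NP1-like class (by name, self-renewing nephron progenitors) held 705, 588 and 594 cells. Its markers *Six2* and *Cited1* were at 224 and 551 CPM in its largest Enl-WT cluster, led by *Rspo3*, *Cited1* and *Crym*. *Wnt4*, a commitment gene, was at 24.3 CPM there, but at 197 and 266 CPM in the *Rrm2*-led and *Ube2c*-led Enl-WT clusters. The largest Enl-T1 cluster was *Rrm2*-led, with *Cited1*, *Six2* and *Wnt4* at 44.1, 63.3 and 338 CPM. The name thus fits the *Cited1*-led cluster best, and the class also holds cells with *Wnt4*. The ureteric tip-like clusters led by *Hist1h2ae*, *Ung* and *Ube2c* held 314, 152 and 118 Enl-WT cells, with 0 tip markers among their 10 leading genes. The *Wnt11*-containing one held 179 and had 2. In *Foxd1*-like cells, the clusters led by *Hist1h2ae* and *Cenpf* (145 and 87 Enl-WT cells) had 0 markers there, and those led by *Ntn1* and *Npy* (139 and 37) had 3 and 2.

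By the RefSeq annotation of GRCm38.p6, the assembly behind mm10, the ligand genes were *Fgf1* at 18:38838672-38929470, *Fgf7* at 2:126034658-126091185, *Fgf8* at 19:45736491-45742941, *Fgf9* at 14:58070671-58112854, *Fgf10* at 13:118714699-118792573 and *Fgf20* at 8:40279166-40286953. The receptor genes are *Fgfr1* at 8:25518759-25575718, *Fgfr2* at 7:130162451-130266808, *Fgfr3* at 5:33721724-33737068 and *Fgfrl1* at 5:108694229-108706950, and all 10 are protein coding.

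The first question was which kidney cells hold each ligand and receptor in the Enl-WT library. *Fgf8* and *Fgf10* came mainly from the nephron lineage, and *Fgf9* from both the ureteric epithelium and the nephron. *Fgfr1* came mostly from the nephron and *Fgfr2* mostly from the ureteric epithelium. *Fgf7* was too sparse to name a main source, with 12 of its 25 UMIs in the stroma and 8 in the nephron. The map of Enl-WT levels over 16 classes shows these patterns side by side.

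**Figure D1:**
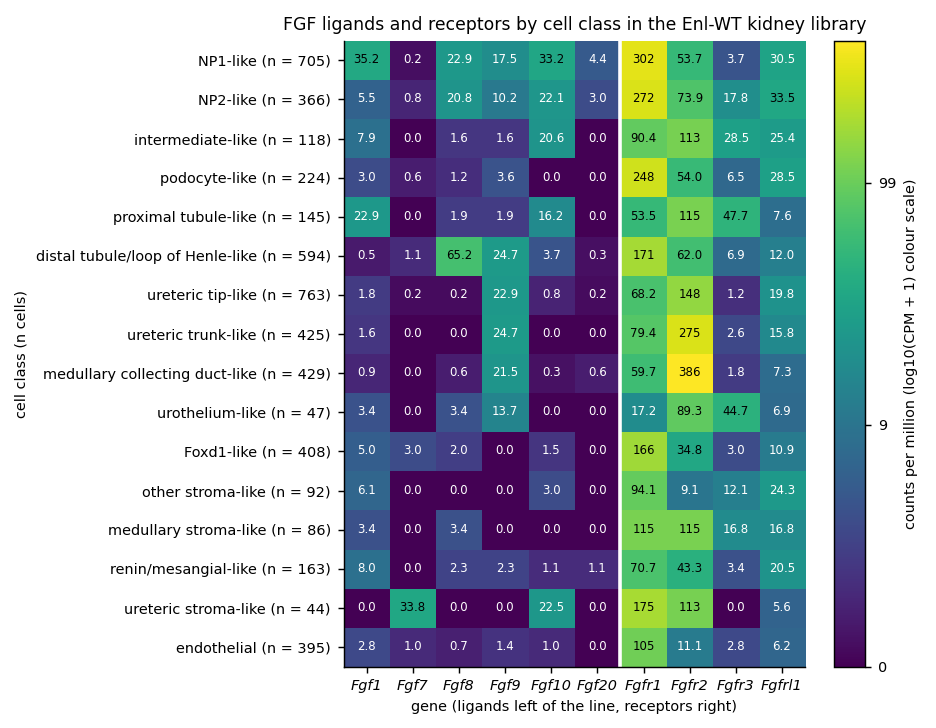
Level of each FGF ligand and receptor in CPM (number in the box, colour on a log10 scale of CPM + 1) in 16 cell classes of the Enl-WT library, with the number of cells per class. *Fgf8* peaks in distal tubule/loop of Henle-like cells at 65.2 CPM, *Fgfr1* in NP1-like cells at 302 CPM and *Fgfr2* in medullary collecting duct-like cells at 386 CPM.

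Among the ligands, *Fgf1*, a broadly acting ligand that binds all receptor types, had 77.9% of its 249 Enl-WT UMIs in the nephron lineage (194 UMIs, exact interval 72.2% to 82.9%). Its level was 35.2 CPM in NP1-like cells (143 UMIs, 29.7 to 41.5) and 22.9 CPM in proximal tubule-like cells (24 UMIs, 14.7 to 34.1), whose intervals overlap. The next classes, renin/mesangial-like and intermediate-like, were at 7.98 and 7.93 CPM, from 7 and 5 UMIs, and their intervals overlap with that of proximal tubule-like cells.

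*Fgf8* had 93.2% of its 425 UMIs in the nephron lineage (90.3% to 95.4%). Distal tubule/loop of Henle-like cells were at 65.2 CPM (57.3 to 73.9), clear of NP1-like cells at 22.9 CPM (18.5 to 28.0) and NP2-like cells at 20.8 CPM (15.4 to 27.5), which did not separate from each other. NP2-like cells are progenitors that have begun to commit, by name, in 2 clusters. That led by *Osr2*, *Lhx1* and *Npy* held 221, 50 and 194 cells and had 2 of the markers among its 10 leading genes, and that led by *Hbb-y*, *Hba-x* and *Bmper* held 145, 192 and 138 cells and had 1, beside the haemoglobin genes. The class is therefore compared between libraries by cluster. Almost all distal *Fgf8* lay in the cluster led by *Sim1*, *Cxcl14* and *Sim2*, with 233 of the 245 UMIs and 108.5 CPM. The study uses *Sim1* to mark precursors of the distal tubule and loop of Henle.

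*Fgf9* was the ligand spread most evenly over epithelia. The ureteric epithelium held 54.9% of its 455 UMIs (50.2% to 59.6%) and the nephron 43.5% (38.9% to 48.2%). Its levels in distal tubule/loop of Henle-like (24.7 CPM), ureteric trunk-like (24.7 CPM), ureteric tip-like (22.9 CPM), medullary collecting duct-like (21.5 CPM) and NP1-like cells (17.5 CPM) had overlapping intervals.

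*Fgf10* had 90.3% of its 257 UMIs in the nephron lineage (86.0% to 93.6%). It was at 33.2 CPM in NP1-like cells, 22.1 CPM in NP2-like cells, 20.6 CPM in intermediate-like cells and 16.2 CPM in proximal tubule-like cells, and no UMI was found in podocyte-like cells. *Fgf20*, the rarest ligand beside *Fgf7*, had 26 of its 30 UMIs in the nephron, with 4.43 CPM in NP1-like and 2.97 CPM in NP2-like cells, which overlap. *Fgf7* had 25 UMIs in all, 12 of them in the stroma. In the ureteric stroma-like class, 6 UMIs in 44 cells gave 33.8 CPM (12.4 to 73.5), against 2.98 CPM in *Foxd1*-like stromal progenitors (1.09 to 6.49), so *Fgf7* was higher in the former beyond counting error.

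Among the receptors, *Fgfr1* had 64.7% of its 4730 UMIs in the nephron (63.4% to 66.1%), 17.1% in the ureteric epithelium, 11.6% in the stroma and 6.45% in the endothelium. Its order began with NP1-like (302 CPM, 286 to 320), NP2-like (272 CPM, 252 to 294) and podocyte-like cells (248 CPM, 225 to 273), and each of these overlaps with the next. Endothelial cells were at 105 CPM. *Fgfr1* was therefore found in every lineage, and the nephron progenitors and podocytes were the upper end of its range.

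*Fgfr2* had 69.0% of its 3887 UMIs in the ureteric epithelium (67.5% to 70.5%). Its level stepped up from ureteric tip-like (148 CPM, 137 to 159) to trunk-like (275 CPM, 252 to 300) and medullary collecting duct-like cells (386 CPM, 365 to 407), 3 classes whose intervals did not overlap. Outside the ureteric epithelium, medullary stroma-like and proximal tubule-like cells were both at 115 CPM, and endothelial cells at 11.1 CPM.

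The balance of both receptors differed between lineages. Of the UMIs of *Fgfr1* and *Fgfr2* together, *Fgfr2* held 15.1% in NP1-like cells (13.3% to 17.0%), 26.7% in distal tubule/loop of Henle-like, 55.5% in intermediate-like and 68.2% in proximal tubule-like cells. In the ureteric epithelium the same share was 68.4% at the tip, 77.6% in the trunk and 86.6% in the medullary collecting duct. In the stroma it was 17.4% in *Foxd1*-like cells and 50% in medullary stroma-like cells. These shares compare classes only, since counts of different genes also depend on how well each 3′ end is captured.

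*Fgfr3* was low in most classes. It was at 47.7 CPM in proximal tubule-like (50 UMIs, 35.4 to 62.9), 44.7 CPM in urothelium-like (13 UMIs, 23.8 to 76.4) and 28.5 CPM in intermediate-like cells (18 UMIs, 16.9 to 45.1), which overlap, and at 3.69 CPM in NP1-like cells. *Fgfrl1*, whose loss in mice leaves the kidneys unformed, was at 33.5 CPM in NP2-like, 30.5 CPM in NP1-like, 28.5 CPM in podocyte-like and 25.4 CPM in intermediate-like cells, without separation. Medullary collecting duct-like cells were at 7.27 CPM of *Fgfrl1*.

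Of 10795 genes compared over the 16 Enl-WT classes, those whose levels ran most like each member were named by Pearson's r of log values. *Fgf8* ran most like *Uncx* (0.808), *Fgf9* like *Wfdc2* (0.921), *Myo5c* (0.920) and *Pax2* (0.914), *Fgf1* like *Acy3* (0.832), and *Fgf10* like *Gm14964* (0.907). *Fgfr1* ran like *Sall2* (0.900) and *Gas1* (0.887), *Fgfr2* like *Tuft1* (0.901), *Fgfr3* like *Hps3* (0.892) and *Fgfrl1* like *Pygo1* (0.806). The 16 points share a library and differ in depth and cell number, so these values describe this library.

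The second question was how the members differed between the Enl-T1 and Enl-WT libraries. A gene was called higher or lower where its CPM ratio between 2 libraries lay at least 1.5-fold from the median ratio of all genes tested in that population and its exact 95% interval left out that median. Genes needed 20 UMIs over both libraries. The median log2 ratio of Enl-T1 over Enl-WT lay at -0.31 in NP1-like cells, -0.28 in the stroma and -0.30 in the ureteric epithelium, and the corresponding median after TDI-11055, over Enl-T1, between -0.02 and 0.00. The Enl-WT library also stood apart in its ribosomal protein UMIs, with a median share of 16.5% per cell against 26.8% and 27.8%. With mitochondrial, ribosomal and haemoglobin genes taken out of the total, the medians of Enl-T1 over Enl-WT were -0.08, -0.10 and -0.16, so a fall in CPM is larger than the fall against the median gene. Relative log2 ratios below have this median subtracted, while fold ratios are of CPM. A call compares 2 libraries, not 2 conditions. The bars by library show all members in the 3 populations.

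**Figure D2:**
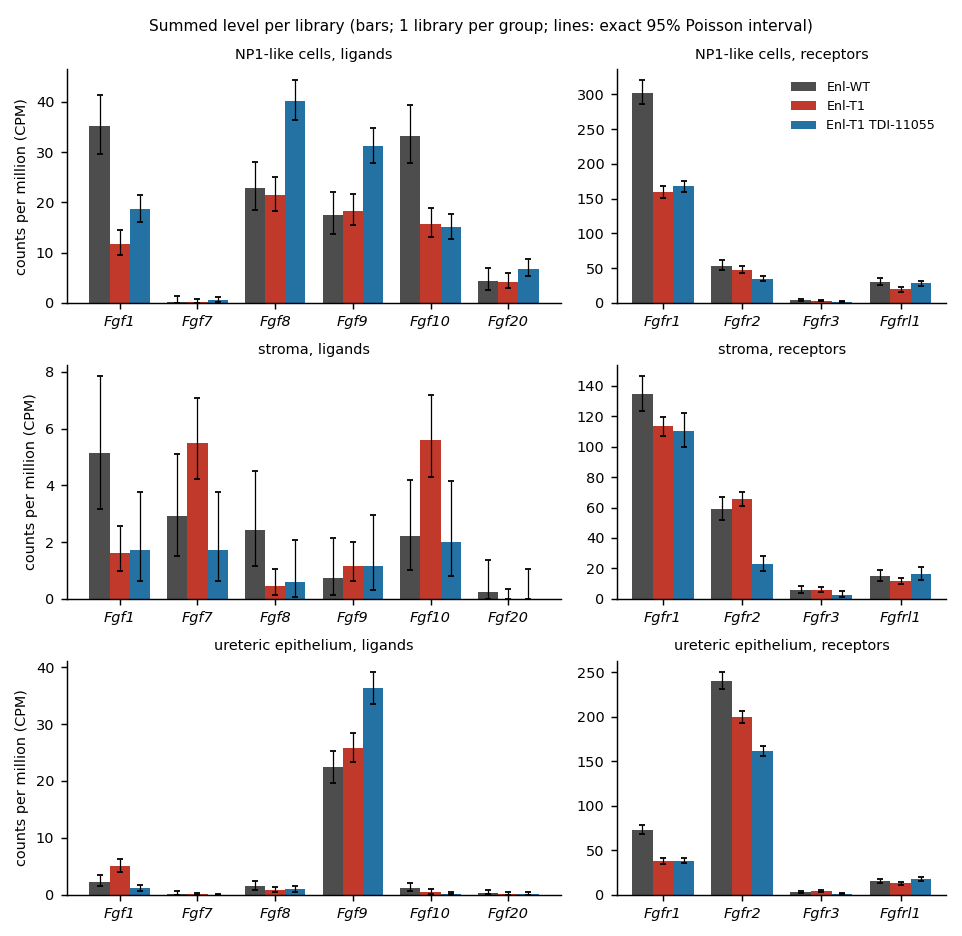
Level (CPM) of each ligand (left) and receptor (right) in NP1-like cells, stroma and ureteric epithelium for the 3 libraries (grey Enl-WT, red Enl-T1, blue Enl-T1 TDI-11055), 1 library per bar, with exact 95% Poisson intervals as lines. In NP1-like cells *Fgf1* stood at 35.2, 11.8 and 18.6 CPM and *Fgfr1* at 302, 159 and 168 CPM in that order.

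In NP1-like cells, *Fgf1*, *Fgf10* and *Fgfr1* were lower in Enl-T1, and no member was higher. The 9 members tested gave 3 calls, beside 26.5% of the 11966 genes tested in that population, so the share of members called was near that of all genes. *Fgf7* had 1 UMI in each of these libraries and was not tested. All 3 calls were lost when the clusters led by cell cycle genes were left out, where *Fgf1*, *Fgf10* and *Fgfr1* had relative log2 ratios of -0.44, -0.58 and -0.30. The 2 members then called, of 7 tested, were *Fgf8* and *Fgf9*, both higher in Enl-T1 at 1.62 and 1.20, beside 24.7% of all genes.

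*Fgf1* in NP1-like cells stood at 35.2 CPM in Enl-WT (143 UMIs) and 11.8 CPM in Enl-T1 (89 UMIs), a ratio of 0.334 (0.253 to 0.438) and a relative log2 ratio of -1.27. After each cell was thinned to 2000 UMIs, 7.73% of Enl-WT (5.86% to 9.96%) and 1.37% of Enl-T1 NP1-like cells (0.591% to 2.67%) had an *Fgf1* UMI. Endothelial cells, taken as the background for *Fgf1*, had 0.779% and 0.781%, so the thinned Enl-T1 share was not separated from background. That Enl-T1 background share rests on 2 cells. By CPM, which uses all UMIs, Enl-T1 endothelial cells were at 4.40 CPM (2.41 to 7.39). The 11.8 CPM of Enl-T1 NP1-like cells lay above this interval. Without thinning the NP1-like shares were 16.3% and 10.9%, and median depths were 5185 and 12191.5 UMIs in NP1-like and 5663 and 10451.5 UMIs in endothelial cells.

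*Fgf10* fell from 33.2 CPM (135 UMIs) to 15.7 CPM (119 UMIs), a ratio of 0.473 (0.366 to 0.610) and a relative log2 ratio of -0.77. The thinned share of NP1-like cells with an *Fgf10* UMI in Enl-WT was 5.58% (4.0% to 7.55%), and that in Enl-T1 was 2.73% (1.57% to 4.40%) (16.7% and 16.2% unthinned), against 0.234% and 0.0855% in the ureteric epithelium, at median depths of 5224 and 11702 UMIs. *Fgfr1* fell from 302 CPM (1229 UMIs) to 159 CPM (1204 UMIs), a ratio of 0.526 (0.485 to 0.569) and a relative log2 ratio of -0.62, just past the 1.5-fold limit.

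The remaining NP1-like members were not called. *Fgf8* was at 22.9 and 21.5 CPM, *Fgf9* at 17.5 and 18.4 CPM, and *Fgf20* at 4.43 and 4.23 CPM in Enl-WT and Enl-T1, with relative log2 ratios of 0.22, 0.38 and 0.24. The CPM ratios of *Fgf8* and *Fgf20* lay under 1 while their relative ratios lay above 0. *Fgfr2* was at 53.7 and 47.4 CPM, *Fgfr3* at 3.69 and 3.17 CPM, and *Fgfrl1* at 30.5 and 19.3 CPM (relative log2 ratio -0.35). With *Fgfr1* lower and *Fgfr2* near the median gene, the *Fgfr2* share of *Fgfr1* and *Fgfr2* UMIs stood at 15.1% in Enl-WT (13.3% to 17.0%) and 23.0% in Enl-T1 (20.9% to 25.1%).

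NP1-like cells fell into 4 clusters, whose shares differed between the libraries. That led by *Cited1*, *Rspo3* and *Crym* had 324 Enl-WT, 152 Enl-T1 and 193 TDI-11055-exposed cells. The others were led by cell cycle genes: *Rrm2*, *Ccne2* and *Pclaf* (188, 217 and 184 cells), *Ube2c*, *Nusap1* and *Ccnb1* (135, 133 and 159 cells) and *Ccnb2*, *Hist1h2bc* and *Cenpa* (58, 86 and 58 cells). In the *Cited1*-led cluster, *Fgf8* was at 17.4 CPM in Enl-WT (25 UMIs) and 41.8 CPM in Enl-T1 (67 UMIs), a ratio of 2.40 (1.5 to 3.97). In the cluster led by *Rrm2*, *Ccne2* and *Pclaf* it was at 21.2 and 8.29 CPM, a ratio of 0.391 (0.217 to 0.704). In that led by *Ccnb2*, *Hist1h2bc* and *Cenpa* it had 2 and 19 UMIs (7.57 and 23.4 CPM), with an interval of the ratio from 0.744 to 27.3. *Fgf8* thus lay in opposite directions in the *Cited1*-led and *Rrm2*-led clusters of the same class, which the class level of 22.9 and 21.5 CPM does not show.

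*Fgf9* in the *Cited1*-led cluster was at 10.4 CPM in Enl-WT and 18.7 CPM in Enl-T1, with a relative log2 ratio of 1.20, against 0.13 in the *Rrm2*-led, -0.02 in the *Ube2c*-led and 0.57 in the *Ccnb2*-led cluster. *Fgf1* had lower CPM in Enl-T1 in the 3 larger clusters, at 52.8 and 30.5 CPM (*Cited1*-led), 20.4 and 7.30 CPM (*Rrm2*-led) and, from 34 and 13 UMIs, a ratio of 0.203 (*Ube2c*-led), with relative log2 ratios of -0.44, -1.18 and -1.98. *Fgf10* relative log2 ratios were -0.58, -0.62 and -0.63, and those of *Fgfr1* -0.30, -0.62 and -0.61, so both lay below the median gene in each of these 3 clusters. The *Ccnb2*-led cluster had 8 and 5 UMIs of *Fgf1* and 4 and 7 UMIs of *Fgf10*, too few for a ratio, and *Fgfr1* there had a relative log2 ratio of -0.59. In the same *Cited1*-led cluster *Wnt4*, an early commitment gene, was at 24.3, 112 and 29.3 CPM, and *Cited1* itself at 551, 163 and 303 CPM in the 3 libraries. Their part in the FGF values was not tested.

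**Figure D3:**
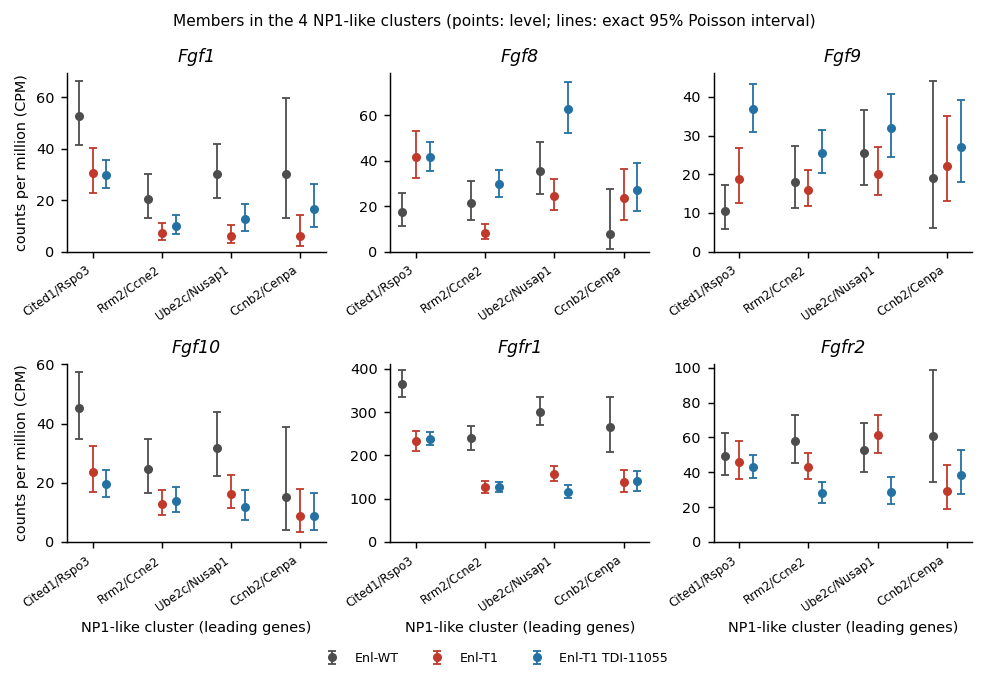
Level (CPM) of 6 members in the 4 NP1-like clusters, named by leading genes, in the 3 libraries (points, with exact 95% Poisson intervals as lines). *Fgf8* in the *Cited1*/Rspo3 cluster was at 17.4 CPM in Enl-WT and about equal in the Enl-T1 (41.8 CPM) and Enl-T1 TDI-11055 (41.4 CPM) libraries, whereas in the *Rrm2*/Ccne2 cluster it was at 21.2, 8.29 and 29.6 CPM.

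Along the rest of the nephron lineage, *Fgf8* in distal tubule/loop of Henle-like cells stood at 65.2 CPM in Enl-WT (245 UMIs, 594 cells) and 118 CPM in Enl-T1 (156 UMIs, 109 cells), a ratio of 1.81 (1.47 to 2.22). Within the *Sim1*-led cluster alone it was at 108.5 and 180 CPM, a ratio of 1.66 (1.34 to 2.05). The thinned share of distal cells with an *Fgf8* UMI in Enl-WT was 9.40% (7.16% to 12.1%), and that in Enl-T1 was 19.6% (12.6% to 28.4%) (22.2% and 36.7% unthinned, at median depths of 5339 and 10813 UMIs), while no thinned endothelial cell had an *Fgf8* UMI. The *Fgf8* level of distal cells was thus higher in Enl-T1, whereas the number of such cells was lower.

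*Fgfr1* was at 275 CPM in Enl-WT and 193 CPM in Enl-T1 in the *Osr2*-led NP2-like cluster (interval of the ratio 0.574 to 0.849) and at 265 and 123 CPM in the *Bmper*-containing one (ratio 0.463, 0.380 to 0.566), with relative log2 ratios of -0.17 and -0.72. Podocyte-like cells had 248 and 150 CPM. Intermediate-like cells lay the other way, at 90.4 CPM in Enl-WT (57 UMIs in 118 cells, 68.5 to 117) and 247 CPM in Enl-T1 (76 UMIs in 25 cells, 194 to 309), against 93.2 CPM in the TDI-11055 library. Lower *Fgfr1* was therefore not shared by all nephron classes. *Fgfr3* over the whole nephron lineage was at 12.0 CPM (166 UMIs) and 4.53 CPM (65 UMIs), a ratio of 0.378 (0.279 to 0.506). The proximal tubule-like and intermediate-like classes, where *Fgfr3* was highest, held 145 and 118 Enl-WT cells but 8 and 25 Enl-T1 cells. Within these classes *Fgfr3* was at 47.7 and 31.0 CPM (proximal) and 28.5 and 19.5 CPM (intermediate), from 3 and 6 Enl-T1 UMIs, and the intervals overlap. The *Osr2*-led NP2-like cluster had 38 UMIs (22.8 CPM) in Enl-WT and 2 UMIs (2.83 CPM) in Enl-T1, and the other NP2-like cluster 4 and 13 UMIs (5.82 and 6.96 CPM). The lineage value moved with the number of cells of these classes, and their part in it was not tested. Values of the whole nephron lineage also include an unnamed cluster led by *Sst*, *Akap12* and *Meg3*, with 38, 219 and 14 cells. In its Enl-T1 cells *Fgfr2* held 48.6% (42.5% to 54.6%) of the UMIs of *Fgfr1* and *Fgfr2*. The part of this cluster in the lineage values was not tested.

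In the stroma, the mesenchymal ligands *Fgf7* and *Fgf10* were higher and *Fgf1* lower in Enl-T1, while the receptors were not called. Of 7 members tested, 3 were called, beside 26.3% of the 13198 genes tested. *Fgf8*, *Fgf9* and *Fgf20* were too sparse to test there.

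*Fgf7* had 12 UMIs (2.93 CPM) in Enl-WT and 61 UMIs (5.50 CPM) in Enl-T1 stroma, a ratio of 1.88 (1.00 to 3.83). *Fgf10* had 9 UMIs (2.20 CPM) and 62 UMIs (5.59 CPM), a ratio of 2.54 (1.26 to 5.82). With a stricter filter on cells (at least 2000 genes and at most 5% mitochondrial UMIs) 4 stromal members still had enough UMIs to be tested. None of them was called, beside 24.6% of all genes, and the relative log2 ratio of *Fgf10* turned from 1.63 to -0.092. Both ligands were concentrated in ureteric stroma-like cells, which numbered 44 in Enl-WT and 237 in Enl-T1. Within that class *Fgf7* was at 33.8 CPM (6 UMIs) and 16.6 CPM (29 UMIs), a ratio of 0.493 (0.201 to 1.45). *Fgf10* in that class was at 22.5 CPM (4 UMIs) and 16.6 CPM (29 UMIs), while another 29 of its Enl-T1 UMIs lay in *Foxd1*-like cells. The *Fgf7* difference over the whole stroma moved with the number of ureteric stroma-like cells. The part of these cells in the difference of either ligand was not tested.

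In *Foxd1*-like stromal progenitors, *Fgf10* had 3 UMIs in Enl-WT (1.49 CPM) and 29 UMIs in Enl-T1 (6.02 CPM), a ratio of 4.04 (1.25 to 20.7), and *Fgf7* had 6 and 26 UMIs, a ratio of 1.81 (0.728 to 5.37). *Fgf1* in the stroma fell from 5.13 CPM (21 UMIs) to 1.62 CPM (18 UMIs), a ratio of 0.317 (0.159 to 0.624). *Fgfr1* was at 135 and 113 CPM, *Fgfr2* at 58.9 and 65.6 CPM, *Fgfr3* at 5.62 and 6.04 CPM and *Fgfrl1* at 14.9 and 11.5 CPM, with relative log2 ratios between -0.10 and 0.44.

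In the ureteric epithelium, *Fgf1* and *Fgfr3* were higher and *Fgfr1* lower in Enl-T1, giving 3 calls among 8 members tested, beside 24.7% of the 13879 genes tested. *Fgf7* and *Fgf20* were not tested. *Fgfr1* fell from 72.7 to 37.6 CPM, a ratio of 0.517 (0.464 to 0.576) and a relative log2 ratio of -0.66, close to its value in NP1-like cells. Endothelial *Fgfr1* was at 105 CPM (305 UMIs) and 55.0 CPM (175 UMIs), a ratio of 0.522 (0.431 to 0.631). Stromal *Fgfr1*, by contrast, had a relative log2 ratio of 0.04.

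*Fgf1* in the ureteric epithelium was at 2.33 CPM (26 UMIs) in Enl-WT and 5.11 CPM (79 UMIs) in Enl-T1, a ratio of 2.19 (1.39 to 3.56). Of the Enl-T1 UMIs, 38 lay in medullary collecting duct-like and 18 in urothelium-like cells, against 3 and 1 in Enl-WT, and the medullary ratio was 6.65 (2.11 to 33.7). *Fgfr3* was at 3.05 CPM (34 UMIs) and 4.46 CPM (69 UMIs), a ratio of 1.46 (0.958 to 2.28). The CPM interval of *Fgfr3* includes 1, and its call rests on the lower median of all genes. Of these *Fgfr3* UMIs, 13 and 35 lay in urothelium-like cells, which numbered 47 and 93, and within them the level was lower in Enl-T1, at 44.7 and 23.6 CPM (ratio 0.529, 0.273 to 1.09). Under the stricter filter on cells 0 of 6 members tested were called in the ureteric epithelium, beside 25.3% of all genes.

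*Fgf9* and *Fgfr2* were not called over the ureteric epithelium, at 22.4 and 25.7 CPM and at 240.3 and 199.6 CPM. In ureteric tip-like cells, which numbered 763 and 337, *Fgf9* was at 22.9 CPM (112 UMIs) and 37.0 CPM (170 UMIs), a ratio of 1.62 (1.27 to 2.07). These cells include the tip-like clusters without a tip marker among their leading genes. *Fgfr2* was at 148 and 146 CPM at the tip, 275 and 296 CPM in the trunk, and 386 and 235 CPM in the medullary collecting duct, where the ratio was 0.611 (0.566 to 0.659). The order of *Fgfr2* from tip to medulla in Enl-WT thus differed in Enl-T1, where the trunk was the highest of these 3 classes. The medullary clusters led by *Aqp2*, *Spp1* and *Tmem213* held 158, 90 and 181 Enl-WT and 128, 161 and 188 Enl-T1 cells, and the *Fgfr2* ratio within them was 0.751, 0.507 and 0.722.

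The third question was how the members differed after exposure to TDI-11055. This comparison shares the Enl-T1 library with the previous one, so a high or low value in that library enters both, and each comparison is given by its own values.

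**Figure D4:**
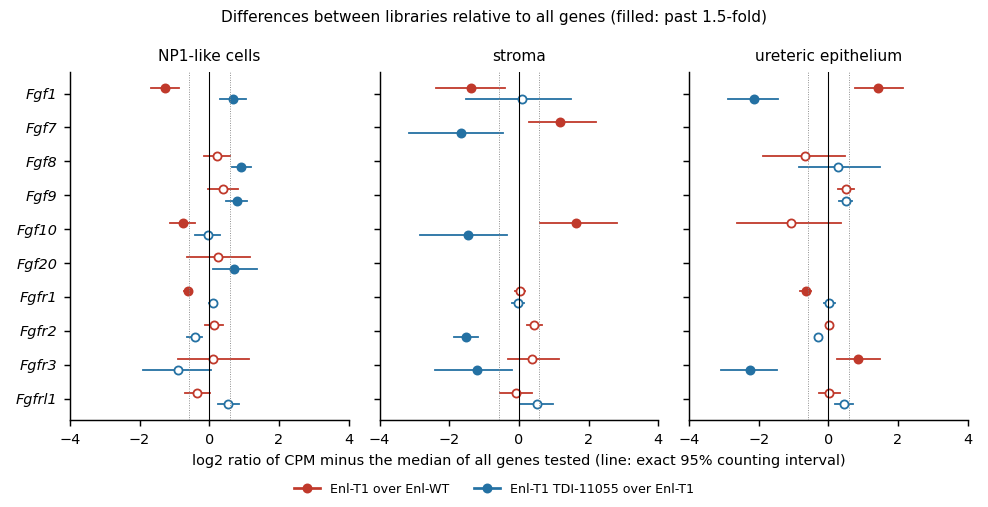
Log2 ratio of CPM minus the median of all genes tested, for each member tested, in NP1-like cells, stroma and ureteric epithelium, for Enl-T1 over Enl-WT (red) and Enl-T1 TDI-11055 over Enl-T1 (blue), with exact 95% counting intervals as lines. Filled points pass the 1.5-fold rule, among them *Fgfr2* in the stroma at -1.51 and *Fgf8* in NP1-like cells at 0.92 in the blue comparison.

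In NP1-like cells, the ligands *Fgf1*, *Fgf8*, *Fgf9* and *Fgf20* were higher in the Enl-T1 TDI-11055 library and no member was lower. The 9 members tested gave 4 calls, beside 15.8% of the 12503 genes tested. *Fgf8* rose from 21.5 CPM (163 UMIs) to 40.2 CPM (412 UMIs), a ratio of 1.87 (1.55 to 2.25). *Fgf9* rose from 18.4 CPM (139 UMIs) to 31.1 CPM (319 UMIs), a ratio of 1.70 (1.39 to 2.09). Both levels were also above the Enl-WT levels of 22.9 and 17.5 CPM.

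*Fgf20* rose from 4.23 CPM (32 UMIs) to 6.83 CPM (70 UMIs), a ratio of 1.62 (1.05 to 2.54), and *Fgf1* from 11.8 CPM to 18.6 CPM (191 UMIs), a ratio of 1.59 (1.23 to 2.06), still below the 35.2 CPM of Enl-WT. The thinned share of NP1-like cells with an *Fgf8* UMI was 3.75% in Enl-T1 (2.37% to 5.63%) and 7.93% in Enl-T1 TDI-11055 (5.88% to 10.4%), against no endothelial cell in either library (17.5% and 29.0% in NP1-like cells without thinning). The median depth of the NP1-like cells was 12191.5 and 19084 UMIs, and that of endothelial cells 10451.5 and 14222 UMIs.

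*Fgf10* and *Fgfr1*, both lower in Enl-T1, were not called here. *Fgf10* was at 15.7 and 15.0 CPM, a ratio of 0.957 (0.748 to 1.23), and *Fgfr1* at 159 and 168 CPM, a ratio of 1.05 (0.979 to 1.14). Their levels under TDI-11055 therefore stayed below those of Enl-WT, 33.2 and 302 CPM. *Fgfr2* was at 47.4 and 34.8 CPM, *Fgfr3* at 3.17 and 1.66 CPM, and *Fgfrl1* at 19.3 and 27.8 CPM, with relative log2 ratios of -0.42, -0.91 and 0.55.

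The rises of *Fgf1* and *Fgf8* were not seen in the *Cited1*-led cluster. In the *Cited1*-led cluster *Fgf8* was at 41.8 and 41.4 CPM, a ratio of 0.992 (0.741 to 1.34), and *Fgf1* at 30.5 and 29.8 CPM, a ratio of 0.975 (0.692 to 1.39). In the *Rrm2*-led cluster *Fgf8* was at 8.29 and 29.6 CPM, a ratio of 3.58 (2.29 to 5.79), and in the *Ube2c*-led cluster at 24.3 and 62.7 CPM, a ratio of 2.58 (1.85 to 3.64). In the *Ccnb2*-led cluster it was at 23.4 and 27.1 CPM, a ratio of 1.16 (0.624 to 2.20). *Fgf9* differed from this, with ratios above 1 in the *Cited1*-led (18.7 and 36.8 CPM, ratio 1.97, 1.32 to 3.02), *Rrm2*-led (15.9 and 25.5 CPM, ratio 1.60, 1.11 to 2.33) and *Ube2c*-led cluster (20.1 and 31.9 CPM, ratio 1.59, 1.06 to 2.39), and 1.22 (0.653 to 2.35) in the *Ccnb2*-led one. Without the clusters led by cell cycle genes, *Fgf9* was the 1 member called of 8 tested, beside 10.6% of all genes. Summed stromal markers in NP1-like cells, 34 genes of which 28 to 30 had a UMI, were at 1089, 612 and 855 CPM in the 3 libraries. Their part in the ligand levels was not tested.

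In the NP2-like cluster led by *Hbb-y*, *Hba-x* and *Bmper*, *Fgf8* was at 16.1 and 28.3 CPM (ratio 1.76, 1.11 to 2.84) and *Fgf9* at 17.1 and 33.9 CPM (ratio 1.98, 1.28 to 3.12). In the *Osr2*-led one *Fgf8* was at 35.4 and 43.6 CPM (ratio 1.23, 0.774 to 2.02) and *Fgf9* had 5 and 30 UMIs (ratio 2.43, 0.933 to 8.02). Distal tubule/loop of Henle-like cells had *Fgf8* at 118 and 93.3 CPM, a ratio of 0.791 (0.651 to 0.966), so the higher *Fgf8* of the nephron lineage as a whole (27.3 and 45.7 CPM) was not found in its strongest class. *Fgf20* had 5, 1 and 24 UMIs in the first of these clusters and 2, 0 and 1 in the other. Over the whole nephron lineage its ratio was 2.24 (1.49 to 3.43).

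In the stroma, *Fgf7*, *Fgf10*, *Fgfr2* and *Fgfr3* were lower in the Enl-T1 TDI-11055 library, giving 4 calls among 7 members tested, beside 21.1% of the 12897 genes tested. The stroma held 871, 1398 and 270 cells in the 3 libraries. Summed erythroid markers, 7 haemoglobin and related genes, were at 657, 728 and 1415 CPM in it, with 6 or 7 detected, and their part in the result was not tested.

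*Fgfr2* in the stroma fell from 65.6 CPM (727 UMIs) to 22.7 CPM (79 UMIs), a ratio of 0.346 (0.271 to 0.437), and also lay below the 58.9 CPM of Enl-WT. In *Foxd1*-like cells, the class that held 186 of the 270 stromal cells, *Fgfr2* was at 34.8 CPM in Enl-WT (70 UMIs), 34.9 CPM in Enl-T1 (168 UMIs) and 10.4 CPM in Enl-T1 TDI-11055 (24 UMIs), a ratio of 0.299 (0.186 to 0.460) between the last 2. *Fgfr1* in the same cells was at 166, 145 and 128 CPM. Of the UMIs of *Fgfr1* and *Fgfr2* in *Foxd1*-like cells, *Fgfr2* held 17.4%, 19.4% and 7.52% (4.88% to 11%).

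Medullary stroma-like cells had *Fgfr2* at 141 CPM in Enl-T1 and 105 CPM in Enl-T1 TDI-11055 (208 and 13 cells), and ureteric stroma-like cells at 87.2 and 104 CPM (237 and 9 cells). The low *Fgfr2* was thus found in *Foxd1*-like progenitors, while too few cells remained to read the other stromal classes. *Fgf7* had 61 and 6 UMIs (5.50 and 1.72 CPM), a ratio of 0.313 (0.111 to 0.722), and *Fgf10* 62 and 7 UMIs (5.59 and 2.01 CPM), a ratio of 0.360 (0.139 to 0.786). In *Foxd1*-like cells *Fgf7* had 26 and 2 UMIs and *Fgf10* 29 and 5 UMIs. *Fgfr3* had 67 and 9 UMIs, a ratio of 0.428 (0.188 to 0.862).

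In the ureteric epithelium, *Fgf1* and *Fgfr3* were lower in the Enl-T1 TDI-11055 library, the 2 calls among 7 members tested, beside 21.3% of the 14002 genes tested. *Fgf1* fell from 5.11 CPM (79 UMIs) to 1.16 CPM (22 UMIs), a ratio of 0.227 (0.135 to 0.368), against 2.33 CPM in Enl-WT. *Fgfr3* fell from 4.46 CPM (69 UMIs) to 0.948 CPM (18 UMIs), a ratio of 0.212 (0.119 to 0.361), against 3.05 CPM in Enl-WT. The urothelium-like class held 93 and 14 cells in this comparison, and *Fgfr3* within it was at 23.6 CPM (16.5 to 32.9) and 18.5 CPM (6.02 to 43.3), which overlap. The part of the smaller number of such cells in the fall was not tested. *Fgf10*, *Fgf7* and *Fgf20* were not tested.

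*Fgf9* in the ureteric epithelium was at 25.7 and 36.3 CPM, a ratio of 1.41 and a relative log2 ratio of 0.49, under the 1.5-fold limit. At the tip it was at 37.0 and 34.8 CPM, in the trunk at 31.3 and 43.4 CPM, and in the medullary collecting duct at 21.8 and 33.9 CPM. *Fgfr2* at the tip was at 148, 146 and 82.9 CPM in the 3 libraries, a ratio of 0.567 (0.511 to 0.629) between the last 2. In the trunk it was at 275, 296 and 211 CPM, and in the medullary collecting duct at 386, 235 and 306 CPM. The order from tip to trunk to medulla seen in Enl-WT was seen again in Enl-T1 TDI-11055. The CPM of each class was below its Enl-WT value, but these 2 libraries were not compared against their median gene. In the ureteric epithelium the median log2 ratio was -0.30 from Enl-WT to Enl-T1 and 0.00 from Enl-T1 to Enl-T1 TDI-11055. Whether trunk and medullary *Fgfr2* fell against the median gene was therefore not tested. Endothelial *Fgfr1*, at 55.0 CPM in Enl-T1, was at 28.4 CPM (50 UMIs in 115 cells), a ratio of 0.516 (0.369 to 0.710).

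The last question was whether genes downstream of the receptors and around them differed with the members. The list of 14 FGF targets and feedback inhibitors (*Etv1*, *Etv4*, *Etv5*, *Spry1* to *Spry4*, *Spred1* to *Spred3*, *Dusp4* to *Dusp6* and *Il17rd*) was lower more often than higher in Enl-T1. In NP1-like cells 6 of 13 tested were lower and 0 higher (median relative log2 ratio -0.46), in the stroma 7 of 14 lower and 3 higher (-0.54), and in the ureteric epithelium 6 of 13 lower and 1 higher (-0.52), while the median of all genes lies at 0 by construction and 26.5%, 26.3% and 24.7% of them were called. Under TDI-11055, 5 of 13 were higher and 0 lower in NP1-like cells (0.46), 4 of 14 higher and 3 lower in the stroma (0.51), and 7 of 13 higher and 1 lower in the ureteric epithelium (0.72), with backgrounds of 15.8%, 21.1% and 21.3%. At the ureteric tip the medians were 0.18 and -0.02.

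*Spry4*, a Sprouty inhibitor of receptor signalling, was at 14.8, 4.36 and 12.5 CPM in NP1-like cells of the 3 libraries. *Spred3*, a related inhibitor, was at 20.4, 6.21 and 10.3 CPM. Both were called lower and then higher. *Etv4*, which transmits FGF and RET signals in the bud and cap, was at 19.5, 5.86 and 27.0 CPM in the stroma, with relative log2 ratios of -1.45 and 2.22. Named after its values were seen, *Etv4* was also at 67.9, 33.9 and 73.1 CPM in NP1-like cells and 94.5, 39.0 and 121 CPM in the ureteric epithelium, called in both comparisons each time. In ureteric tip-like cells it was at 184, 113 and 207 CPM, with relative log2 ratios of -0.41, not called, and 0.89, called higher. These cells numbered 763, 337 and 455 of the 1739, 1174 and 1022 cells of the ureteric epithelium. The part of their share in the lineage value was not tested.

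Not all targets ran this way. *Dusp5*, a nuclear MAPK phosphatase, was higher in Enl-T1 in the ureteric epithelium (57.5, 91.3 and 37.5 CPM) and the stroma (14.9, 21.6 and 9.77 CPM) and lower under TDI-11055. *Dusp4*, of the same family, was at 44.8, 12.2 and 25.0 CPM in the ureteric epithelium and 19.3, 2.44 and 6.61 CPM in the stroma. *Il17rd*, an antagonist of FGF signalling, was at 12.4, 3.68 and 9.06 CPM in the ureteric epithelium but 7.08, 9.56 and 5.17 CPM in the stroma, so the same gene was called in opposite directions in these populations.

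**Figure D5:**
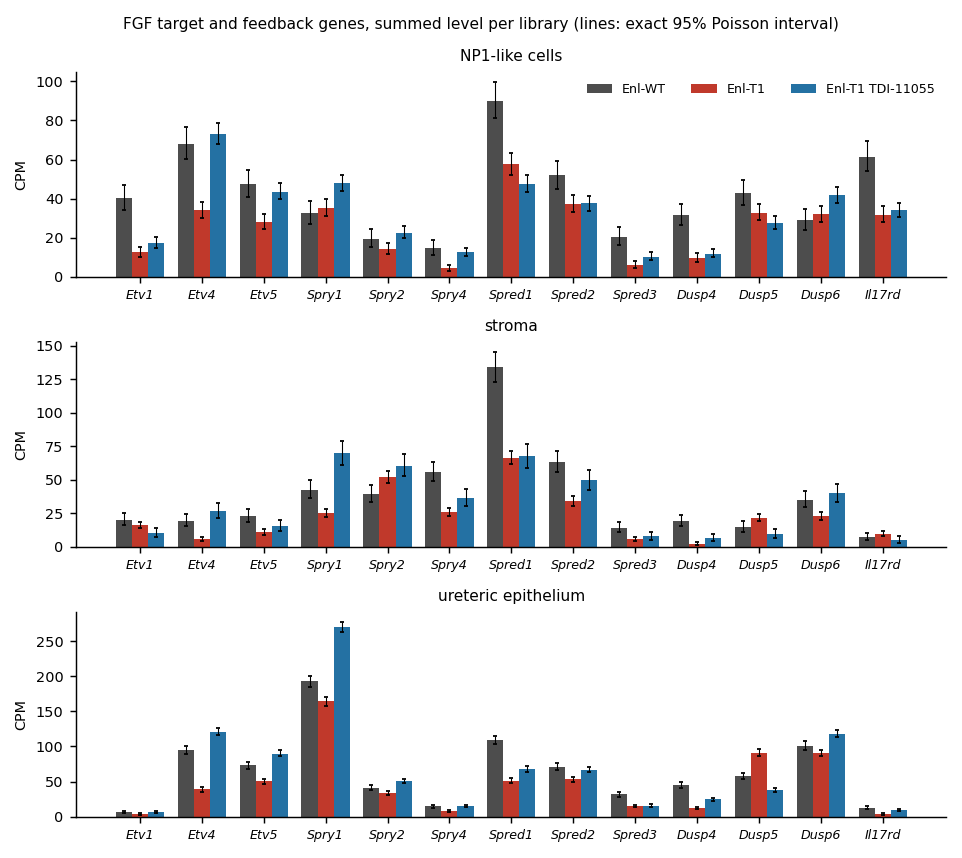
Level (CPM) of 13 FGF target and feedback genes in NP1-like cells, stroma and ureteric epithelium for the 3 libraries, 1 library per bar, with exact 95% Poisson intervals as lines (*Spry3*, with few UMIs, is not drawn). *Etv4* in NP1-like cells stood at 67.9, 33.9 and 73.1 CPM and *Dusp5* in the ureteric epithelium at 57.5, 91.3 and 37.5 CPM.

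Among the relay genes between receptor and MAPK (20 genes), 1 was higher and 4 lower of 19 tested in NP1-like cells of Enl-T1 (median -0.23), 0 and 3 of 20 in the stroma (-0.25), and 0 and 2 of 20 in the ureteric epithelium (-0.20), beside 26.5%, 26.3% and 24.7% of all genes called in either direction. Under TDI-11055, 0 were higher and 4 lower in NP1-like cells (-0.16), 1 and 0 in the stroma, and 1 and 1 in the ureteric epithelium, beside 15.8%, 21.1% and 21.3% of all genes. *Plcg1*, a phospholipase bound by activated receptors, was lower in Enl-T1 in all 3 populations, at 65.7 and 29.2 CPM in NP1-like cells, 54.9 and 27.4 CPM in the stroma and 31.0 and 14.4 CPM in the ureteric epithelium. *Pik3r1*, a regulatory subunit of phosphoinositide 3-kinase, was at 30.8, 118 and 29.5 CPM in NP1-like cells, higher in Enl-T1 and lower under TDI-11055.

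Of the co-receptors, heparan sulphate enzymes and FGF binders (19 of the 20 listed were counted), 2 were higher and 1 lower of 16 tested in NP1-like cells of Enl-T1 (median 0.06), 3 and 2 of 16 in the stroma (-0.09) and 2 and 3 of 18 in the ureteric epithelium (-0.14), beside backgrounds of 26.5%, 26.3% and 24.7%. Under TDI-11055 the counts were 0 higher and 4 lower of 16, 2 and 4 of 16, and 2 and 2 of 17, beside 15.8%, 21.1% and 21.3%. *Flrt2*, a membrane protein that binds FGF receptors, was at 160, 236 and 83.0 CPM in the stroma, and *Flrt3* at 18.6, 40.7 and 12.0 CPM in the ureteric epithelium. *Gpc6*, a heparan sulphate proteoglycan, was at 324, 154 and 173 CPM in NP1-like cells.

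Other secreted ligands were sparse. Of the list of 13 genes (the other ligands and *Fgfr4*), 1 gene was tested in NP1-like cells and not called in Enl-T1, 2 of 3 tested were lower in the stroma, and 1 of 3 was lower in the ureteric epithelium, where 26.5%, 26.3% and 24.7% of all genes were called. Under TDI-11055, 1 was higher in NP1-like cells, 0 were called in the stroma, and 2 were higher in the ureteric epithelium, beside 15.8%, 21.1% and 21.3% of all genes. *Fgf18* was at 4.39, 1.36 and 2.79 CPM in the ureteric epithelium, and *Fgf2* at 9.52, 4.33 and 2.87 CPM in the stroma. *Fgfr4*, the fourth kinase receptor, was at 13.9, 2.30 and 4.84 CPM over the nephron lineage, where the proximal tubule-like class held 145, 8 and 22 cells. Of the 4 intracellular homologous factors, which are not secreted, 2 of 3 tested were higher in Enl-T1 stroma and lower under TDI-11055, where 26.3% and 21.1% of all genes were called. *Fgf13* was at 9.77, 16.0 and 10.1 CPM and *Fgf11* at 5.62, 7.67 and 4.02 CPM there. In NP1-like cells and the ureteric epithelium 0 of these 4 factors were called in Enl-T1, beside 26.5% and 24.7% of all genes. Under TDI-11055, 1 was lower in each, beside 15.8% and 21.3%.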

How the data were processed

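Kidneys of pooled embryos were profiled in 3 droplet libraries, 1 per group. The deposited matrices held raw UMI counts per gene and barcode, which the authors had made with Cell Ranger 6.1.2 on mouse build mm10, with no later filter on cells, removal of doublets or correction for free RNA. Barcodes were kept if they had 1000 to 6000 genes and no more than 10% mitochondrial UMIs, and doublets were left in.

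Libraries were integrated in Seurat 5.3.0 (R 4.3.3) on 2000 variable genes, without the FGF, Hox, electron transport, mitochondrial, ribosomal, haemoglobin and sex-linked genes, and clustered with 30 principal components (resolution 0.5), then with 20 (resolution 0.8) within each lineage. Clusters were named from marker lists and their 10 leading genes. A cluster with fewer than 3 markers detected stayed unnamed. So did a cluster that matched another lineage better, and one of low depth with no marker among its leading genes. Class names were rebuilt in this way and can differ from the study's.

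Counts were summed per class and library, scaled to CPM and given exact Poisson intervals, with exact split intervals for ratios and Clopper-Pearson intervals for shares (scipy 1.17.1). Cells were thinned to 2000 UMIs for shares of cells. The call rule was tested on simulated data, which cannot measure differences between libraries of the same group, since each group has 1. All members were named, with the 3 genes most like each over the Enl-WT classes in r of log2(CPM + 1), and of each other FGF list up to 2 genes called in each direction with the largest relative ratio of Enl-T1 over Enl-WT in a population. The members and lists were chosen with earlier results of these data known. Alternatives to the scaling, filters, clustering, doublets (Scrublet in scanpy 1.11.5), sex of the cells and weight of cells were run, and 2 more were chosen after the data were seen.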

Additional observations from a re-analysis of the deposited data

Results flagged for a closer look

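*Fgf1* stood apart because its calls had opposite signs in different populations of the same pair of libraries. Between Enl-T1 and Enl-WT its relative log2 ratio was 1.43 in the ureteric epithelium, -1.27 in NP1-like cells and -1.38 in the stroma. After TDI-11055, against Enl-T1, it was 0.69 in NP1-like cells and -2.14 in the ureteric epithelium. With 1 library per group, the difference between populations was not tested. In male NP1-like cells alone the first ratio was -3.72 and in female cells -0.64, while the female share of cells was 26.5% in Enl-WT and 73.3% in Enl-T1, and the part of sex in the value was not tested.

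*Fgf10* was singled out for the same reason. Between Enl-T1 and Enl-WT its relative log2 ratio was 1.63 in the stroma, from 9 and 62 UMIs, and -0.77 in NP1-like cells, from 135 and 119 UMIs. The stromal value turned to -0.092 with a stricter filter on cells, under which 0 of 4 stromal members tested were called, beside 24.6% of all genes. This difference between populations was not tested either.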

How the results depend on the processing

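Each count of members called was recomputed under the alternatives, and the cause of a shift was not tested unless the setting itself left fewer cells or genes. With a stricter filter on cells (2000 to 6000 genes, mitochondrial share at most 5%), NP1-like calls went from 3 to 1 (Enl-T1 over Enl-WT) and from 4 to 2 (Enl-T1 TDI-11055 over Enl-T1), stromal calls from 3 to 0 and from 4 to 2, and ureteric epithelium calls from 3 to 0 in the former comparison. With at least 5 CPM on average, which drops the sparse members, calls in the stroma were 0 of 4 tested and 1 of 3, beside 26.3% and 21.5% of all genes. In the ureteric epithelium they were 1 of 4 and 0 of 4, beside 23.0% and 17.4%. Male cells alone gave 0 of 5 and 1 of 3 in the stroma, beside 24.8% and 17.3% of all genes. They gave 1 of 5 and 1 of 4 in the ureteric epithelium, beside 22.2% and 12.1%. Female cells gave 1 of 6 in the stroma for Enl-T1 over Enl-WT, beside 22.4%. Clusters led by cell cycle genes were left out in a setting chosen after the data were seen. The 3 NP1-like calls of Enl-T1 over Enl-WT were then lost and 2 others made (*Fgf8* and *Fgf9*, both higher), among 7 tested and beside 24.7% of all genes. TDI-11055 calls went from 4 to 1 of 8 in NP1-like cells (beside 10.6%) and from 4 to 2 of 6 in the stroma (17.2%). The relative log2 ratios of *Fgf1* and *Fgf8* in NP1-like cells under TDI-11055 turned to -0.082 and -0.057. *Fgf10* in the stroma turned to -0.092 for Enl-T1 over Enl-WT under the stricter filter. *Fgfr2* in the stroma under TDI-11055 ranged from -1.72 to -1.16 over 15 settings, *Fgfr1* in NP1-like cells of Enl-T1 from -0.93 to -0.30, and *Fgf9* in NP1-like cells under TDI-11055 from 0.47 to 1.05. Without division by the median, 34.8% of genes were called in NP1-like cells between Enl-T1 and Enl-WT. Both other scalings leave relative ratios as they are by construction. No paired analysis was possible because each group has 1 library. Levels under about 5 CPM rest on few UMIs, and differences between embryos, preparations and sexes cannot be told apart from those between groups.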
